A study of Mus musculus with 30 samples.

Results

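Atf3 and Maff encode stress-inducible transcription factors, and they are 2 of the 25275 genes or unnamed transcripts measured here in mouse blood cells. Both were chosen from the readout, by taking every non-control probe whose gene name in the array files is Atf3 or Maff and reading its level in each treatment and time. Each gene had 1 such probe. Because their levels were known when they were chosen, the levels and the differences of Atf3 and Maff are given as a description, with no test.

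The arrays hold RNA of PBMC (peripheral blood mononuclear cells, which a density gradient separates from whole blood and which are mainly lymphocytes and monocytes) of female C57BL/6 mice aged 6 weeks. All mice were anaesthetised with xylazine and ketamine and received 200 µl into the tail vein. Mice of the treated groups were given OA, that is oleic acid, at 1.2 µl per g of body weight, an established way to injure the lungs of rodents, and control mice were given physiological serum. At 1 and 1.5 h each treatment had 3 arrays. At 3, 18 and 24 h there were 3 OA arrays and 2 serum arrays, and at 4 h 2 OA arrays and 1 serum array. An array stands for 1 mouse, since both the design text's mice and the arrays number 30. The model is limited by its agent and by its cells: a control that received another lipid is not among these groups, and the blood volume collected per mouse was small and variable per the labels.

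ATF3 is a basic leucine zipper protein of the ATF/CREB family whose gene is switched on quickly by many stresses, among them the integrated stress response through ATF4 and signalling from pattern recognition receptors. In mouse macrophages it is known as a brake on inflammatory genes such as Il6 and Il12b. MAFF is a small MAF protein, a basic leucine zipper protein without a transactivation domain of its own. It binds DNA as a pair with itself, with the other small MAF proteins MAFG and MAFK, or with CNC proteins such as NFE2, NRF1, NRF2, BACH1 and BACH2, and with NRF2 it occupies the antioxidant response elements of genes such as Hmox1 and Nqo1.

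The promoters of both genes hold a cyclic AMP response element (CRE) or a sequence close to it, the kind of site that ATF/CREB proteins bind, and they are shown for that reason. The sequences are RefSeq's on GRCm38.p6, run 5′ to 3′ on the gene's strand and hold the 250 bases before an annotated start. Atf3 has 1 start in the RefSeq table, at chr1:191183334-191183583 on the minus strand. Maff has 3, and the one shown is the second, at chr15:79347270-79347519 on the plus strand. Capitals mark matches, on either strand, to TNACGTCA (CRE-like, which includes the CRE TGACGTCA) and to TGATGNAA (a C/EBP-ATF element).
Atf3: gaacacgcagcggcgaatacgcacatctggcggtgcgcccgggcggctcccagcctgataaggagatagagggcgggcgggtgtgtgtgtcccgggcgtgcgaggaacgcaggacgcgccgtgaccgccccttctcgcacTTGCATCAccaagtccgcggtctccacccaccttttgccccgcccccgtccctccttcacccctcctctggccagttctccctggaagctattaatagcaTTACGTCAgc
Maff, second start: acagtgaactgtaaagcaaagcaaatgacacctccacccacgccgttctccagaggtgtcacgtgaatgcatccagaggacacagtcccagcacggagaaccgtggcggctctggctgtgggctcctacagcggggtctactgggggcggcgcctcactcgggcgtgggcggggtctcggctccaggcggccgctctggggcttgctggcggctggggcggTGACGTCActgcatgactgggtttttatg
The Atf3 window holds TTACGTCA at 10 to 3 bases before the start, and TTGCATCA, the reverse strand of a C/EBP-ATF element, at 110 to 103 bases before it. The second Maff window holds the full CRE, TGACGTCA, at 29 to 22 bases before the start. Of 32851 windows of the same length, 2.52% hold TNACGTCA, 1.55% hold TGACGTCA and 3.45% hold TGATGNAA. The windows of the first and the third Maff start hold none of these 3 motifs. The first holds TGACTCTGC, a match to the antioxidant response element core TGACNNNGC that 10.2% of windows share, at 112 to 104 bases before the start. None of the 4 windows matches TGANTCA, the AP-1 core, which 6.75% of windows hold, and all 4 match a loose NF-kB-like pattern that 45.8% hold and that is not capitalised. A match describes the letters of the window and says nothing about binding in these cells.

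The Atf3 probe, A_52_P452689, lies at chr1:192994547-192994606 on the minus strand of mm9, and the Maff probe, A_52_P608322, at chr15:79189442-79189501 on the plus strand of mm9. The exon or untranslated region that each probe covers was not analysed here, because the annotation at hand is of another build. Levels are log2 values of the background-corrected signal minus the 75th percentile of the same array, so a level of 0 is a signal equal to that percentile. Levels of the 2 probes are not compared with each other, since probes differ in brightness. A probe is called well above background where the scanner software's own mark says so. By that mark Atf3 was detected on 28 of 30 arrays and Maff on 10.

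The arrays themselves differed in ways that touch these values. The 75th percentile of the signal ran from 37.7 to 136 and the share of probes well above background from 34.7% to 65.0%, and pairwise correlations ran from 0.740 to 0.984. Arrays with a median correlation below 0.9 with the rest were OA 4 h replicate 2 (0.851), serum 1.5 h replicate 3 (0.896) and serum 24 h replicate 1 (0.814). The arrays came from 5 slides and 2 scan days. Slide 5 held OA arrays only (5 of them, from 1, 3, 18 and 24 h) and was the whole of the second scan day, so slide and day cannot be told apart there. All measured markers of T cells, B cells, monocytes, neutrophils, platelets and erythroid cells were well above background on all 30 arrays, so the preparations carried RNA of neutrophils, platelets and red cells beside the labelled lymphocytes and monocytes. In such a mixture, more cells of a type and more RNA per cell cannot be told apart.

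Atf3 stood higher in OA mice than in serum mice at 1.5, 18 and 24 h, with no overlap between the groups. At these times 18.4%, 2.66% and 27.4% of all genes also had all OA arrays above the serum arrays. The Atf3 groups overlapped at 3 h. At 1 h the OA mean was higher but the arrays overlapped, and at 4 h both OA arrays were below the single serum array. The highest Atf3 level of the 12 groups was that of OA at 1.5 h.

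**Figure D1:**
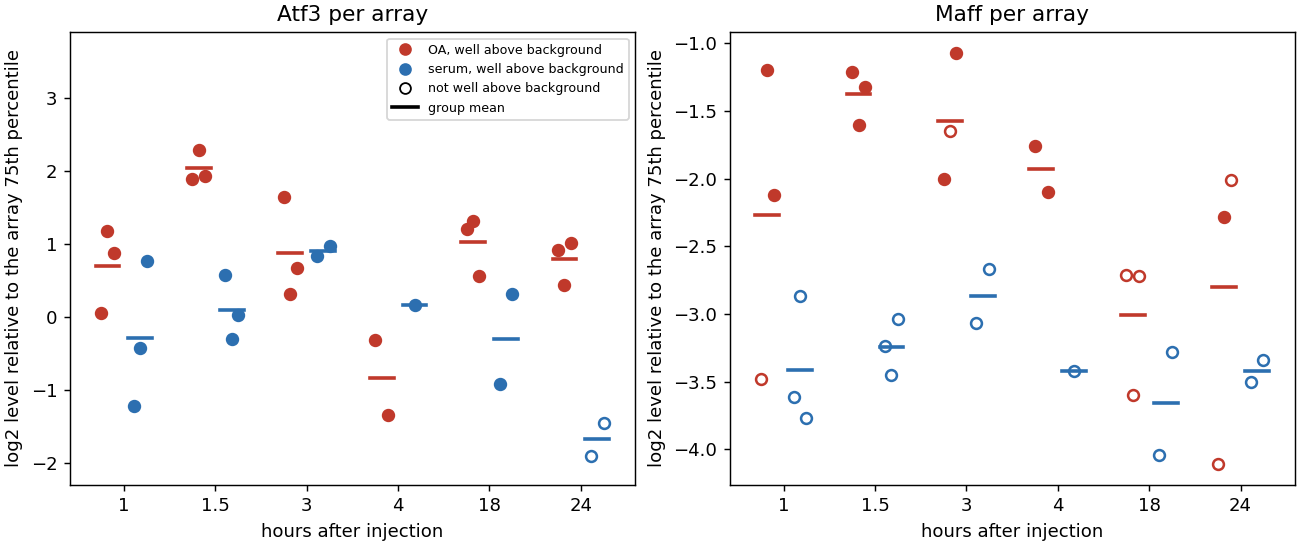
Log2 level of Atf3 (left) and Maff (right) on each of 30 arrays, relative to the array's 75th percentile, against hours after injection. OA is red and serum blue, bars are group means, and open points are arrays on which the probe was not well above background. At 1.5 h the 3 OA arrays of Atf3 lie between 1.89 and 2.28 and those of Maff between -1.60 and -1.21. They are above every serum array of that time, as in 18.4% of all genes. No serum point of Maff is filled.

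At 1 h, Atf3 was at 0.05, 1.18 and 0.88 on the OA arrays, against -1.22, -0.42 and 0.77 on the serum arrays. The lowest OA array lay below the highest serum array, while 3.26% of all genes had OA arrays that all lay above the serum arrays and 8.17% had them all below. The difference of the means was 0.99 (SE 0.47), a fold of 1.99, and OA replicates 2 and 3, the 2 highest of the 6, are both on slide 5. Within slide 1, which held 1 OA array and 2 serum arrays of this time, the difference was 0.27, and without slide 5 it was 0.34 (SE 0.72).

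At 1.5 h, Atf3 was at 1.89, 2.28 and 1.93 on the OA arrays, against 0.57, -0.31 and 0.02 on the serum arrays. Every OA array was more than 1 log2 unit above the highest serum array. In the scanner's own units the processed signal was 263, 645 and 324 on the OA arrays, against 98.4, 39.9 and 88.2 on the serum arrays. The means were 2.03 ± 0.21 in OA and 0.09 ± 0.44 in serum (SD, n = 3 each), a difference of 1.94 (SE 0.47) and a fold of 3.83. Of all genes, 0.372% had a larger difference at this time, and 18.4% had OA arrays that all lay above the serum arrays. No slide-5 array belongs to this time, and the difference was 2.58 within slide 3 and 1.91 within slide 4, each from 1 OA array and 1 serum array.

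At 3 h, Atf3 was at 1.64, 0.32 and 0.67 on the OA arrays, against 0.84 and 0.97 on the serum arrays. The serum arrays lay inside the range of the OA arrays. The difference was -0.03 (SE 0.53), so no direction is given for this time.

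At 4 h, Atf3 was at -0.32 and -1.35 on the OA arrays, against 0.16 on the serum array. Both OA arrays were lower (difference -0.995, SE 0.70), in a comparison in which 40.9% of all genes had OA arrays that all lay below the serum array. The lower OA array is replicate 2, the array with the low median correlation. Without it the difference was -0.48, and within slide 3, which held replicate 2 and the serum array, it was -1.51.

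At 18 h, Atf3 was at 1.21, 1.31 and 0.56 on the OA arrays, against -0.92 and 0.31 on the serum arrays. All OA arrays were above both serum arrays, which 2.66% of all genes also showed at this time, beside 4.26% with all OA arrays below. The mean was 1.03 ± 0.41 (SD, n = 3) in OA and -0.30 ± 0.87 (SD, n = 2) in serum, a difference of 1.33 (SE 0.53) and a fold of 2.51. The serum arrays lay 1.23 apart, and the difference was 0.72 without serum replicate 1 and 1.94 without serum replicate 2.

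At 24 h, Atf3 was at 0.92, 0.44 and 1.01 on the OA arrays, against -1.91 and -1.45 on the serum arrays. These serum arrays were the lowest of the 13 serum arrays and the only arrays of the study on which Atf3 was not well above background. The mean was 0.79 ± 0.30 (SD, n = 3) in OA and -1.68 ± 0.32 (SD, n = 2) in serum. With the reported processing Atf3 was thus at least 5.53-fold higher in OA (measured difference 2.47, SE 0.53). The difference was 1.88 in a table of values that the authors deposited and 3.20 with quantile normalization. Of all genes, 27.4% had OA arrays that all lay above the serum arrays. The difference was 2.24 without serum replicate 1, the array of lowest median correlation. Both serum arrays of 24 h are on slide 1 and the OA arrays on slides 2, 3 and 5, so no value within a slide exists.

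Averaged with equal weight over the 6 times, the Atf3 difference was 0.95 (SE 0.22), and 0.127% of genes had a larger one. The mean difference at 18 and 24 h exceeded that at the 4 earlier times by 1.42 (SE 0.46). In the order of the 12 group means, OA at 1.5 h was highest, 1.01 above OA at 18 h, or 1.74 times the residual SD of 0.578. Serum at 24 h was lowest, 0.843 below OA at 4 h, or 1.46 times that SD. The groups between them, from OA 18 h through serum 3 h, OA 3 h, OA 24 h, OA 1 h, serum 4 h, serum 1.5 h, serum 1 h and serum 18 h to OA 4 h, formed a run in which no neighbours were farther apart than 1 residual SD.

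Maff was higher in OA mice than in serum mice in the first hours, with no overlap between the groups at 1.5, 3 and 4 h. At these times 18.4%, 17.6% and 31.1% of all genes also had all OA arrays above the serum arrays. The Maff arrays overlapped at 1, 18 and 24 h. It was never well above background in serum, so every serum level is only a bound. The folds given as at least hold for the reported processing, and the differences were smaller under some of the alternatives. By that mark it was detected on 9 of 11 OA arrays from 1 to 4 h and on 1 of 6 OA arrays at 18 and 24 h, against 0 of 13 serum arrays.

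At 1 h, Maff was at -3.48, -1.20 and -2.12 on the OA arrays, against -3.61, -2.87 and -3.77 on the serum arrays. OA replicate 1 was as low as serum, while replicates 2 and 3 were the highest of the 6. The means differed by 1.15 (SE 0.51), a fold of 2.22, with 2 of 3 OA arrays well above background. This fold is not a lower bound, since OA replicate 1 enters the OA mean with a background signal. Replicates 2 and 3 are both on slide 5, and without that slide the difference was -0.06 (SE 0.48).

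At 1.5 h, Maff was at -1.21, -1.60 and -1.32 on the OA arrays, against -3.24, -3.45 and -3.04 on the serum arrays. The lowest OA array was 1.44 above the highest serum array, and the spread within each treatment was small. Of all genes, 18.4% had OA arrays that all lay above the serum arrays. The processed signal was 30.7, 43.9 and 34.1 on the OA arrays, against 7.06, 4.51 and 10.6 on the serum arrays. The means were -1.38 ± 0.20 in OA and -3.24 ± 0.21 in serum (SD, n = 3 each). With the reported processing Maff was thus at least 3.65-fold higher in OA (measured difference 1.87, SE 0.51). The difference was 1.85 within slide 3 and 1.72 within slide 4.

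At 3 h, Maff was at -2.0, -1.65 and -1.07 on the OA arrays, against -3.07 and -2.67 on the serum arrays. All OA arrays were above both serum arrays, which 17.6% of all genes also showed at this time, and 2 of the 3 were well above background. The measured difference was 1.30 (SE 0.57), a fold of 2.46. This fold is not a lower bound, since OA replicate 2 enters the OA mean with a background signal. The difference was 1.05 without slide 5 and 1.02 within slide 1.

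At 4 h, Maff was at -1.76 and -2.10 on the OA arrays, against -3.42 on the serum array. Both OA arrays were above the serum array, as in 31.1% of all genes. Maff was at least 2.82-fold higher in OA (measured difference 1.49, SE 0.76). Without OA replicate 2, the array of low correlation, the difference was 1.66.

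At 18 h, Maff was at -2.71, -3.60 and -2.72 on the OA arrays, against -4.04 and -3.28 on the serum arrays. At 24 h it was at -4.11, -2.28 and -2.01 on the OA arrays, against -3.50 and -3.34 on the serum arrays. At both times the treatments overlapped, and OA 24 h replicate 1 was the lowest of all 30 arrays. No fold is given at these times, since none of the 5 arrays of 18 h and 1 of the 5 arrays of 24 h had Maff well above background. The difference of the processed signals at 24 h was 0.62 (SE 0.57), and it was 0.024 with median scaling, 0.15 with slide as a block, 0.26 with the intergenic covariate described further on, -0.15 with normexp background correction and 1.87 with quantile normalization.

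Averaged over the 6 times, the difference of the Maff signals was 1.18 (SE 0.24), a value that includes background signals for every serum array and for OA at 18 h. The 4 highest of the 12 group means were OA at 1.5, 3, 4 and 1 h, and no neighbours among them were farther apart than the residual SD of 0.635. The other 8 groups are given no order, since 1 of their 19 arrays had Maff well above background.

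The Maff signal was close to background, and its detection is therefore also given by slide. Slide 5 held 3 of the 10 OA arrays on which Maff was well above background. On slides 1 to 4, Maff was well above background on 7 of 12 OA arrays, against 0 of 13 serum arrays. On slide 3 the 4 OA arrays, from 1.5, 3, 4 and 24 h, lay between -2.28 and -1.60, and the 4 serum arrays, from 1, 1.5, 4 and 18 h, between -4.04 and -2.87. The Maff background signal on that slide was 32 to 42 on the OA arrays and 29 to 35 on the serum arrays. The OA arrays of that slide were also brighter: their 75th percentile was 99.8 to 136, against 49.2 to 83.8 on the serum arrays. Whether brightness bears on the detection of Maff was not tested, and the share of all probes with such a split is not given. Maff passed the filter on dim probes through OA arrays only. Atf3 was well above background on 12 of 12 OA arrays and 11 of 13 serum arrays of slides 1 to 4.

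**Figure D2:**
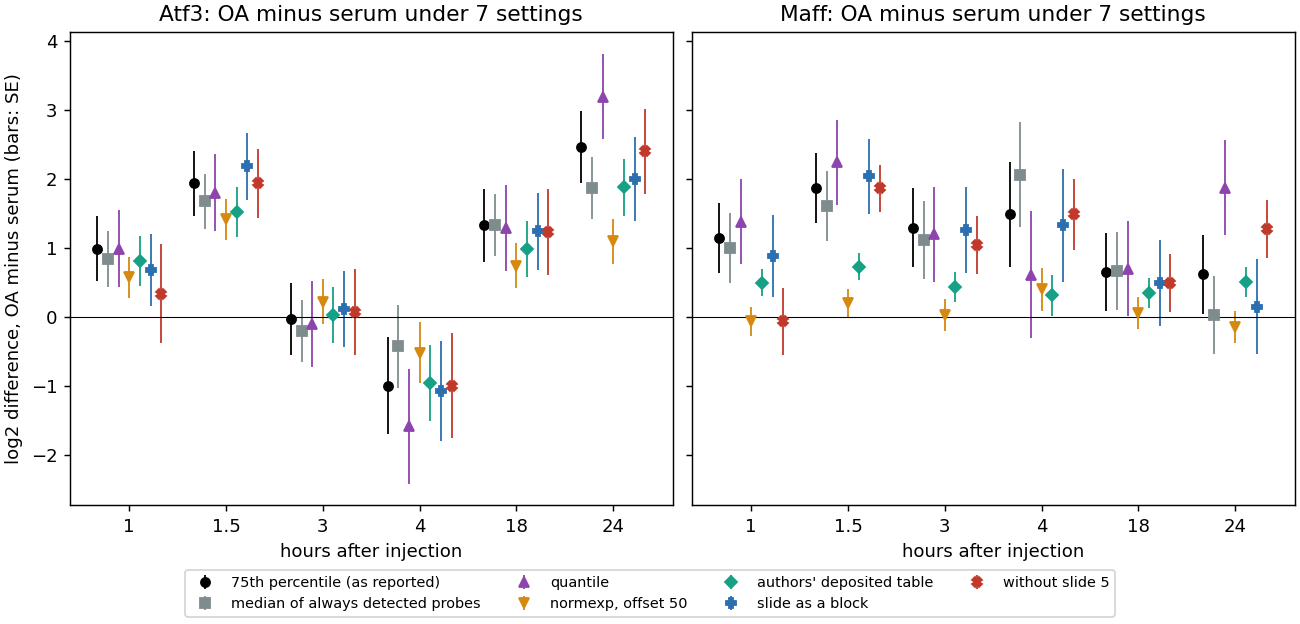
OA minus serum difference (log2) of Atf3 (left) and Maff (right) at each time under 7 settings named in the legend, with SE as bars. The Atf3 difference at 1.5 h stays between 1.42 and 2.18 in these settings, while that of Maff at 1.5 h runs from 0.20 with normexp background correction to 2.24 with quantile normalization.

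The size of the Maff difference changed with the background correction. With normexp background correction and an offset of 50, an amount larger than the processed signal of Maff on 29 of 30 arrays, the Maff difference at 1.5 h was 0.20 and its mean over 6 times 0.08. In the authors' deposited table, Maff differed by 0.73 at 1.5 h and by 0.47 on average. The Atf3 difference at 1.5 h was 1.42 with normexp and 1.52 in the authors' deposited table.

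The Atf3 difference exceeded 1 log2 unit at 1.5, 18 and 24 h and was -0.03 at 3 h and -0.995 at 4 h. The Maff difference exceeded 1 at each time from 1 to 4 h, while at 18 and 24 h its signals were mostly background and give no size. Whether the time courses of the 2 genes differ was not tested. Across the 12 group means their levels correlated with Pearson's r 0.53 (Spearman's rho 0.55). Within OA arrays r was 0.18 (rho 0.27, n = 17), within serum arrays 0.42 (rho 0.45, n = 13), and for deviations from the group means 0.14 (rho 0.10, n = 30). These correlations are descriptions and carry no p, since both genes come from the same arrays and share their scaling and depth, and since most Maff values are background signals.

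Cell type markers also differed between OA and serum. Averages over each marker list of the OA minus serum differences are given here, and their part in the Atf3 and Maff differences was not tested. At 1 h, 7 of 8 neutrophil markers (average 0.85), 6 of 7 platelet markers (0.57), 6 of 7 monocyte markers (0.27) and 5 of 5 B cell markers (0.57) were above 0. At 1.5 h the 7 platelet markers were all above 0 and averaged 1.89, with group means of 6.50 (5.84 to 7.54) in OA and 4.60 (3.92 to 5.20) in serum. At that time the 7 measured monocyte markers were all above 0 and averaged 0.63, the 5 measured erythroid markers were all below 0 and averaged -0.97, and 1 of 8 neutrophil markers was above 0 (average -0.35). At 3 h the platelet list averaged 1.30 and the monocyte list 1.03. At 4 h, where Atf3 was lower in OA, 0 of 7 monocyte markers and 0 of 8 neutrophil markers were above 0, with averages of -1.89 and -1.61. The mean level of the monocyte list was 2.34 on the OA arrays of 4 h, against 4.23 on the serum array. At 18 h, when Atf3 was higher in OA, 7 of 8 neutrophil markers were above 0 (average 0.88), against 2 of 7 monocyte markers (0.16) and 0 of 7 platelet markers (-0.19). At 24 h all 7 monocyte markers were above 0 and averaged 2.19, with group means of 4.01 (3.79 to 4.21) in OA and 1.82 (0.943 to 2.70) in serum. All 6 T cell, 5 B cell and 5 NK cell markers were above 0 at 24 h as well, with averages of 0.83, 1.11 and 0.80, and 7 of 8 neutrophil markers were (0.40). The platelet list averaged -0.44 at 4 h and 0.18 at 24 h. Of the list of lung epithelium and endothelium, 3 of 5 genes were measured, 1 of them well above background on all arrays. These 3 averaged -4.01 at 24 h and -2.03 at 4 h. Their mean level was 3.91 (3.89 to 3.94) in serum at 24 h, against -0.10 in OA at 24 h and 0.10 in serum at 18 h. A high level was not confined to these arrays: the mean was 3.46 on the serum array of 4 h, 2.135 in OA at 4 h and 1.39 in serum at 3 h. Both serum arrays of 24 h thus had a high lung list level, so leaving out serum replicate 1 does not remove it.

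Over the 12 group means, Atf3 correlated with the monocyte list at r 0.76, neutrophils at 0.68, B cells at 0.60, T cells at 0.54 and platelets at 0.33. Its r was -0.14 with NK cells, -0.50 with erythroid cells and -0.60 with the lung list. Among the 8580 single genes compared further on, the median r with Atf3 was 0.57, so values of this size were common under this scaling. With arrays scaled by the median of always detected probes that median r was 0.14, and the list correlations are not given for that scaling. Maff correlated with the platelet list at 0.50 (rho 0.27), the neutrophil list at 0.28 (rho 0.29) and the monocyte list at 0.20 (rho 0.21). With the other lists its r lay between -0.36 and 0.04. A further quantity was the level of probes for long intergenic RNAs relative to probes detected on every array. The latter enter with a minus sign, and genes detected on every array had the median r of 0.57 with Atf3 given above. A negative r with Atf3 thus follows in part from the definition, and values for other single genes are not given. This intergenic quantity correlated with Atf3 at r -0.82 and with Maff at -0.21. Its mean was -6.08 in OA and -4.20 in serum at 24 h, -4.53 in OA and -5.86 in serum at 4 h, and -5.93 in OA and -5.30 in serum at 1.5 h. With it as a covariate the Atf3 difference was 1.52 (SE 0.39) at 1.5 h, -0.11 (SE 0.62) at 4 h and 1.22 (SE 0.55) at 24 h, and the Maff difference at 1.5 h was 1.74 (SE 0.53).

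**Figure D3:**
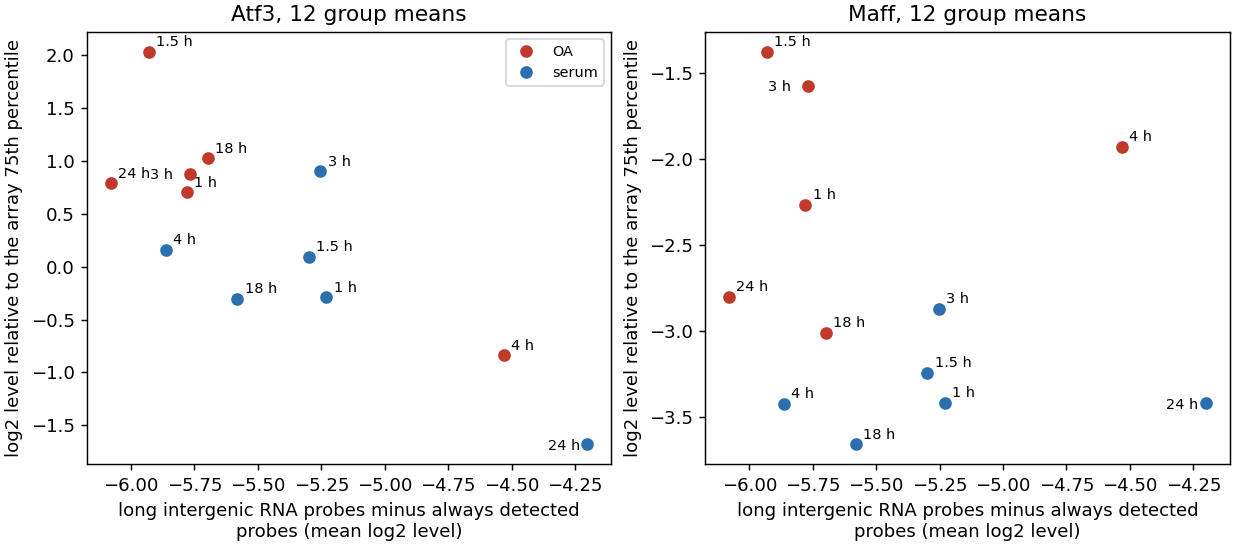
Group mean level of Atf3 (left) and Maff (right) against the mean level of long intergenic RNA probes relative to always detected probes (log2), for 6 OA groups (red) and 6 serum groups (blue), labelled by hours after injection. OA 4 h (-4.53) and serum 24 h (-4.20), the groups with the highest intergenic level, hold the lowest Atf3 means, -0.84 and -1.68, while Maff at OA 4 h is -1.93, the third highest of its 12 means.

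Genes whose pattern was most like each of the 2 were taken from the 8580 genes with a symbol that were well above background on all arrays, by Pearson's r over the 12 group means. For Atf3 they were Pnrc1 (r 0.96), a nuclear receptor coactivator, Irf1 (0.95), an interferon-induced transcription factor, Csrnp1 (0.93), a nuclear protein, Psme1 (0.92), a subunit of the proteasome activator, and Plk3 (0.92), a stress-responsive kinase. Over the 30 single arrays their r ran from 0.67 to 0.84. At 1.5 h these 5 genes differed by 0.75, 1.09, 0.92, 0.47 and 1.27 between OA and serum. Of the genes compared, 58.5% had r above 0.5 with Atf3, a share that was 19.4% when arrays were scaled by the median of always detected probes.

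For Maff the most alike genes were Ptpn12 (r 0.85), a tyrosine phosphatase, Map1lc3a (0.80), an autophagy protein, Ccr3 (0.80), the eotaxin receptor, Tspan2 (0.77), a tetraspanin, and Hacd4 (0.77), an enzyme of very long chain fatty acid elongation. Over the 30 arrays their r ran from 0.49 to 0.56. At 1.5 h they differed by 0.98, 0.74, 1.24, 1.35 and 1.44 between OA and serum, and at 24 h by 0.21, 0.35, -0.45, 0.38 and 0.23. Of the genes compared, 5.27% had r above 0.5 with Maff. These values rest in part on Maff signals that were not above background.

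The pathways around Atf3 and Maff were followed through 6 lists of 88 genes, of which 84 were measured, with the limma test across all genes and Benjamini-Hochberg adjusted p under 0.05. Genes of these lists passed the test in 1 of the 8 contrasts, that at 24 h. At 1.5 h, when both genes were high in OA, 0 of 84 genes passed in limma, 5 had an unadjusted p under 0.05, 61 were above 0, and the lowest adjusted p was 0.471. No gene of the array passed at that time (0% called in either direction). At 1, 3, 4 and 18 h, 0 of 84 passed in limma as well, with 4, 14, 10 and 1 genes at an unadjusted p under 0.05, 67, 70, 19 and 54 of 84 above 0, and again 0% of all genes called. For the mean of 6 times, 0 of 84 passed and 21 had an unadjusted p under 0.05, beside 0% of all genes called higher and 0.00396% called lower. For late minus early, 0 of 84 passed and 17 had an unadjusted p under 0.05, beside 0% of all genes. At 24 h, 20 of 84 genes passed as higher in OA than in serum and 3 as lower. In that comparison 15.5% of all genes were called higher and 16.1% lower. Higher and lower compare OA with serum at the same time, not 24 h with earlier times.

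The 24 h calls depended on the setting. With slide as a block, 0 list members and 7 genes passed in limma. Without slide 5, 0 list members and 8 genes passed, and with the intergenic covariate 0 and 2. Why these counts fell was not tested. Leaving out serum replicate 1, the array of lowest correlation, leaves 1 serum array at 24 h. For that setting only differences are given below, and the named genes are not said to pass in it.

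**Figure D4:**
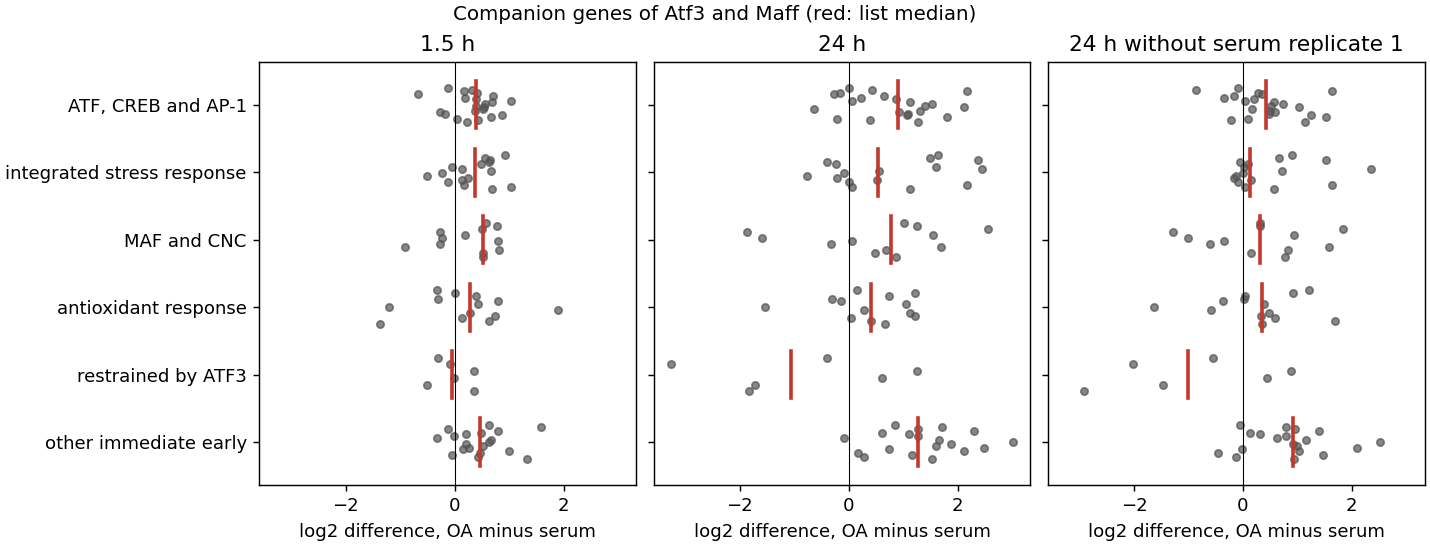
OA minus serum differences (log2) of the measured genes of 6 lists around Atf3 and Maff at 1.5 h, at 24 h, and at 24 h without serum replicate 1; each point is a gene and the red bar is the list median. At 1.5 h the list medians lie between -0.05 and 0.51, and at 24 h the median of the other immediate early genes is 1.27, or 0.93 without serum replicate 1.

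The 22 measured ATF, CREB and AP-1 partners of ATF3 had a median difference of 0.90 at 24 h, beside 0.04 over all genes. Of them, 6 passed as higher in OA and none as lower, beside 15.5% and 16.1% of all genes. They were Cebpb (2.17, adjusted p 0.0196), a C/EBP factor that pairs with ATF proteins, Batf3 (2.11) and Batf (1.31), AP-1 factors of immune cells, Atf2 (1.53) and Atf1 (1.41), and Jun (1.28), the AP-1 subunit that pairs with ATF3. Without serum replicate 1 the differences were 1.64 for Cebpb, 1.03 for Batf3, 0.49 for Batf, 0.73 for Atf2, 0.52 for Atf1 and 1.15 for Jun, and the list median was 0.42. At 1.5 h it was 0.39, beside 0.09 over all genes, with the largest differences in Atf5 (1.04, SE 0.39) and Fosb (0.87, SE 0.53), adjusted p 0.471 and 0.537. Atf4, the factor that drives Atf3 in the integrated stress response, differed by 0.69 at 1.5 h and 1.12 at 24 h (adjusted p 0.0566), and had the smallest p of this list for the mean of 6 times (0.52, adjusted p 0.313). Jdp2, the closest relative of Atf3, differed by -0.26 at 1.5 h and 0.93 at 24 h (adjusted p 0.238).

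Of the 16 genes of the integrated stress response, 4 passed as higher in OA at 24 h and none as lower, beside 15.5% and 16.1% of all genes. They were Cebpb, Nupr1 (2.44), a small stress-induced nuclear protein, Eif2ak2 (at least 4.95-fold, not well above background in serum), the kinase PKR, and Eif2ak4 (1.63), the amino acid sensor GCN2. Without serum replicate 1 the differences were 2.34 for Nupr1, 1.53 for Eif2ak2 and 0.895 for Eif2ak4. The list median was 0.53 at 24 h, 0.12 without serum replicate 1 and 0.37 at 1.5 h. Eif2ak4 differed by 0.92 at 1.5 h (adjusted p 0.471).

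Of the 12 MAF and CNC partners of MAFF, 2 passed as higher in OA and 1 as lower at 24 h. With 15.5% and 16.1% of all genes called, these counts are not read as a trait of the list. Bach1, the repressor that pairs with small MAF proteins, was higher by 2.56 (adjusted p 0.00668) and Nfe2l2, which encodes NRF2, by 1.55. Nfe2l1, which encodes NRF1, was lower by 1.58. Without serum replicate 1 these differences were 1.84, 0.947 and -1.02. The other small MAF genes did not pass: Mafg differed by 0.52 at 1.5 h, 1.38 at 3 h and 0.88 at 24 h (adjusted p 0.111), and Mafk by 0.52, 0.10 and 0.48 (adjusted p 0.323 at 24 h). The list median at 1.5 h was 0.51, and Maf, a large MAF gene, differed by 0.82 (adjusted p 0.543). At 24 h the median was 0.78, and 0.31 without serum replicate 1.

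Of the 13 measured genes with antioxidant response elements, 2 passed as higher in OA at 24 h, a share near the 15.5% of all genes called higher. They were Gclc (1.22), the catalytic subunit of glutathione synthesis, and Txnrd1 (1.13), thioredoxin reductase. Without serum replicate 1 they differed by 0.33 and 0.49. At 1.5 h the largest differences were those of Srxn1 (1.91, SE 0.66), sulfiredoxin, and Hmox1 (-1.38, SE 0.44), heme oxygenase 1, both with adjusted p 0.471. Nqo1, a quinone reductase, differed by 1.72 at 1 h, and had the smallest p of the list for the mean of 6 times (0.89, adjusted p 0.322). The list median was 0.28 at 1.5 h and 0.41 at 24 h.

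Of 8 genes that ATF3 is known to restrain in mouse macrophages, 6 were measured. At 24 h none passed as higher in OA and 2 as lower, beside 15.5% and 16.1% of all genes. Cxcl1, a neutrophil chemokine, had a lower signal in OA. It was well above background on 0 of 3 OA arrays and 1 of 2 serum arrays, so no fold is given. Its difference was -3.27, and -2.01 without serum replicate 1, the higher of the 2 serum arrays and the array of lowest correlation. The value thus rests in part on that array and otherwise mostly on background signals, so it gives no firm size. Il12b, a subunit of interleukin 12, was not well above background on an array of either treatment at that time, so its call compares background signals and gives no direction. Ccl4, a chemokine detected on all 30 arrays, differed by 0.36 at 1.5 h (adjusted p 0.724), -0.46 at 4 h and 1.26 at 24 h, and Tnf, also detected on all 30, by 0.62 at 24 h (adjusted p 0.28), and neither passed. The list median was -0.05 at 1.5 h, -1.06 at 24 h and -1.01 at 24 h without serum replicate 1. With 6 genes, the 24 h medians rest in part on the background signals of Il12b, so they give no direction for the list. Il12b and Cxcl1 were well above background on 4 and 8 of the 30 arrays.

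Of 19 other stress and immediate early genes, 7 passed as higher in OA at 24 h and none as lower, beside 15.5% and 16.1% of all genes. They were the nuclear receptor Nr4a1 (3.02, adjusted p 0.0130), Klf4 (2.49), Klf10 (1.88) and Klf6 (1.61) of the Krüppel-like factors, Nfil3 (2.30), a leucine zipper repressor, Zfp36 (2.12), which destabilises cytokine messages, and Tnfaip3 (1.71), the NF-kB inhibitor A20. Without serum replicate 1 the differences were 2.52 for Nr4a1, 2.10 for Klf4, 0.929 for Klf10, 1.0 for Klf6, 1.399 for Nfil3, 1.03 for Zfp36 and 0.797 for Tnfaip3. The Nr4a1 mean was 5.31 at 1.5 h and 5.13 at 24 h in OA, against 4.67 and 2.11 in serum. The Klf4 mean was 1.35 and 2.06 in OA at these times, against 1.09 and -0.43 in serum. Which treatment changed over time was not tested. At 1.5 h the list median was 0.47, and the largest differences were Tnfaip3 (1.58, SE 0.49, adjusted p 0.471) and Egr1 (1.33, SE 0.91, adjusted p 0.548), an early growth response factor. For the mean of 6 times, the smallest p of the list were those of Tnfaip3 (0.84) and Nr4a1 (0.89), both with adjusted p 0.313.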

How the data were processed

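Blood mononuclear cell RNA of 30 mice was measured on 30 Agilent mouse arrays with 62976 spots in 1 colour, with 200 ng of total RNA labelled with Cy3 per the labels' protocols. Per the file headers and the submitters' processing notes, the deposited intensity values come from Agilent Feature Extraction 10.5.1.1 and are linear signals; the processed intensity, from which the software has subtracted background array by array, was used. The authors also deposited a table of values whose comparison with the arrays puts it on a log2 scale, and it served only as an alternative. Its 62927 rows have column medians of 5.35 to 5.36, and 30 of 30 columns match their own array best (median correlation 0.811). How that table was corrected, scaled and centred is not given.

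Control spots and spots with the software's outlier mark (91 to 1408 per array) were left out, and no spot of Atf3 or Maff was saturated. From the log2 of the processed signal, the array's 75th percentile over non-control probes was subtracted. Probes well above background on at least 3 arrays were kept, and of several probes of a gene the brightest was used, which gave 25275 genes. Names came from the reference tables by accession (26762 probes), symbol (3819) or older symbol (639), and 24461 probes kept the file's name. Where no array of a group had a probe well above background and every array of the other group did, the fold is a bound. It is taken against, per array, the higher of the probe's own signal and the lowest signal well above background. Such a bound covers only the undetected signal, not the spread between arrays or the choice of processing. For Atf3 and Maff it equals the measured fold.

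A model with 12 group means was fitted in R 4.3.3 with limma 3.58.1, using all arrays (18 residual degrees of freedom), two-sided, with Benjamini-Hochberg adjustment over all genes and a threshold of 0.05. For the lone serum array of 4 h the spread of the other groups is assumed. SE values of Atf3 and Maff come from this fit, and p-values measure the spread between mice. The number of arrays limits the precision. The script was tested on simulated data.

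The members and all lists were chosen with earlier results of these data known. Named list genes are those that passed the test, the 2 with the smallest p for the mean of 6 times, the 2 with the largest difference at 1.5 h, and Mafg, Mafk and Jdp2; 1 gene that the rule names is not reported here. Alternatives were other scalings, background correction, the deposited table, filters, slide and replicate blocks, an intergenic covariate, and arrays left out. In 12 pairs of same-numbered arrays, deviations correlated from -0.53 to 0.43, and 4 pairs exceeded 0.1, so the numbers do not pair the arrays.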

Additional observations from a re-analysis of the deposited data

Results flagged for a closer look

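Atf3 was lower on both OA arrays than on the serum array at 4 h (OA minus serum -0.995), while it was higher on every OA array than on every serum array at 1.5 h (1.94), at 18 h (1.33) and at 24 h (2.47). Of all genes, 40.9% had all OA arrays below the serum array at 4 h. All OA arrays lay above in 18.4%, 2.66% and 27.4% of genes at 1.5, 18 and 24 h. The opposite directions of Atf3 between times were not tested, and the 4 h value rests on 2 OA arrays and 1 serum array.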

How the results depend on the processing

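Every value here is an OA minus serum difference in log2 unless it is called a count. The reported direction of Atf3 held under all alternatives run at 1, 1.5, 4, 18 and 24 h and for the mean of 6 times, and that of Maff at 1.5, 3 and 4 h and for the mean. At 1.5 h the range over 41 alternatives was 1.42 to 2.58 for Atf3 and 0.20 to 2.24 for Maff.

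With normexp background correction, which adds 50 to every signal and so by construction shrinks differences of dim probes, Atf3 was 0.22 at 3 h (-0.03 reported), 0.75 at 18 h and 1.1 at 24 h, and Maff was -0.063 at 1 h, 0.20 at 1.5 h, 0.026 at 3 h, 0.40 at 4 h, -0.15 at 24 h and 0.080 for the mean. In the authors' deposited table Atf3 was 0.032 at 3 h and 1.88 at 24 h, and Maff was 0.50 at 1 h, 0.73 at 1.5 h, 0.43 at 3 h, 0.31 at 4 h and 0.47 for the mean. With quantile normalization Atf3 was -1.58 at 4 h and 3.20 at 24 h, and Maff 0.62 at 4 h and 1.87 at 24 h. With median scaling Atf3 was 1.87 at 24 h. With the intergenic covariate Atf3 was -0.11 at 4 h and 1.22 at 24 h. Without slide 5 Atf3 was 0.34 at 1 h and 0.076 at 3 h, and Maff -0.0605 at 1 h and 1.27 at 24 h. With slide as a block Atf3 was 0.12 at 3 h. Within slides Atf3 was 0.27 (1 h, slide 1), 2.58 (1.5 h, slide 3) and -0.64 (3 h, slide 1), and Maff 0.21 (1 h, slide 1) and -0.32 (18 h, slide 2). Apart from normexp, the cause of these shifts was not tested.

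Leaving out 1 array at a time gave Atf3 0.53 to 1.52 at 1 h, 1.74 to 2.17 at 1.5 h, -0.41 to 0.25 at 3 h (0.03 without serum replicate 2, 0.25 without OA replicate 2 and 0.08 without OA replicate 3), -1.51 to -0.48 at 4 h, 0.72 to 1.94 at 18 h, 2.24 to 2.70 at 24 h and 0.85 to 1.05 for the mean. It gave Maff 0.62 to 1.76 at 1 h, 1.76 to 1.98 at 1.5 h, 1.05 to 1.51 at 3 h, 1.33 to 1.66 at 4 h, 0.27 to 1.03 at 18 h, 0.23 to 1.27 at 24 h and 1.09 to 1.29 for the mean. Leaving out the single serum array of 4 h gives no value for 4 h, the mean or late minus early.

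Counts of called genes at 24 h (7987 reported) were 5258 in the deposited table, 11980 with no filter on dim probes, 3788 with genes above background on all arrays, 54 without the 3 low-correlation arrays, 8 without slide 5, 7 with slide as a block, 2 with the intergenic covariate, and 39 to 13060 with 1 array left out. Counts of list genes at 24 h (23 reported) were 35 with normexp, 0 with slide as a block, without slide 5, without the 3 low-correlation arrays and with the intergenic covariate, and 0 to 39 with 1 array left out. At 1 h, 16 genes passed without slide 5 (0 reported). At 4 h (0 reported), 4 passed with quantile normalization, 5 in the deposited table and 3 with slide as a block. For the mean of 6 times (1 reported), 2 passed with normexp, 3 in the deposited table, 2 with no filter and 0 with genes above background on all arrays, and 0 to 9 with 1 array left out. For late minus early (0 reported), 4 passed with quantile normalization, 4 in the deposited table and 1 with the intergenic covariate. Leaving out 1 array, 0 to 1762 genes and 0 to 7 list genes passed for late minus early, and 0 to 1, 0 to 3, 0 to 1 and 0 to 5 genes at 1.5, 3, 4 and 18 h.

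With the replicate number as a block, Atf3 was 1.94 and Maff 1.87 at 1.5 h, 5749 genes and 19 list genes passed at 24 h, and 2 genes passed for the mean. The block changed no other count by over 1.5 times. Each gene had 1 probe, so another probe could not be tried. The share of genes with r above 0.5 under median scaling (19.4% for Atf3 and 5.59% for Maff) was an alternative chosen after seeing the data, and 4 and 3 of the 5 most alike genes stayed among the top 5.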
